A study of Mus musculus with 4 samples.

Results

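The Schlafen genes of the mouse were read in the mRNA of CD11b+Ly6g+ myeloid-derived suppressor cells (MDSCs) sorted from lungs. The 7 genes described are Slfn1, Slfn2, Slfn3, Slfn4, Slfn5, Slfn8 and Slfn9, of 54532 gene rows in all, and each was found by its symbol. The family was selected because Slfn4 was very abundant and stood above the control library in sFD17 and below it in FR17, so that the values of these contrasts are given as a description. All 7 passed the filter of at least 10 counts in at least 1 library, as 16369 genes did, and the smallest count of any of the 7 in a library was 26.

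The study asked how peptides that assemble in the lung affect the pre-metastatic niche (PMN), the altered tissue that precedes colonization by tumor cells. It made 4 libraries, 1 for each group, from the pooled cells of 10 to 12 mice. Every mouse was a C57BL/6 animal aged 6 to 8 weeks that received MCM, the medium conditioned by B16F10 melanoma cells, at 300 μL into the peritoneum each day, and an injection of B16F10 cells into the tail vein on day 7. The control group (Ctrl) was given MCM and B16F10 cells without a peptide, so that a lung without MCM is not among the groups. TP5, the immunomodulatory pentapeptide thymopentin, sFD17 and FR17 were each given under the skin at 40 μM/kg per day from day 3, and lungs were collected on day 10. FR17 carries TP5 on a backbone that assembles once the protease MMP2 has cut the linker. In sFD17 the residues of TP5 are in scrambled order on the same backbone and linker, so that FR17 and sFD17 differ by that order alone.

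Schlafen proteins are a family of mammals whose genes are induced by type I interferon and by microbial stimuli in immune cells. Slfn1 and Slfn2 encode short proteins, and Slfn2 keeps T cells and monocytes in quiescence. Slfn3 and Slfn4 encode proteins of intermediate length, and Slfn4 marks a population of myeloid cells in the inflamed stomach that suppress T cells. Slfn5, Slfn8 and Slfn9 are long members with a helicase-like region, and several Schlafen proteins bind or cut tRNA.

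With 1 library per group, no difference had a replicate check and no test of the conditions was possible. Differences are log2 fold changes of CPM, the counts scaled to a common library size with TMM factors, and a gene is called when it differed at least 2-fold. The 95% intervals cover counting error of the reads only, not the spread between mice or pools. The totals were 15543071 to 19638228 counts, and TMM factors ran from 0.849 in sFD17 to 1.17 in FR17. Under these factors the median of all genes moved by at most 0.07 on the log2 scale in any of the 6 comparisons of a pair of libraries. Under library size alone it stood at −0.23 in sFD17 and 0.26 in FR17 against control and at 0.52 in FR17 against sFD17. The share of calls that were higher then fell from 45.1% to 27.4% in sFD17 against control and from 54.4% to 30.1% in sFD17 against TP5. It went from 52.2% to 77.5% in FR17 against control, from 51.1% to 84.3% in FR17 against sFD17 and from 71.0% to 83.6% in FR17 against TP5. The defining markers of neutrophils, to which a CD11b+Ly6g+ gate is directed, were present in every library, with 0 of 15 without counts.

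All 7 genes lie on chromosome 11 of GRCm38, in a cluster of 344.4 kb from 82942341 to 83286726 that holds 10 loci of the family. Slfn5 (ENSMUSG00000054404, plus strand, 82951349 to 82964840) is followed by Slfn9 (ENSMUSG00000069793, minus strand, 82978390 to 82991830) and Slfn8 (ENSMUSG00000035208, minus strand, 83002158 to 83020810). Then come Slfn2 (ENSMUSG00000072620, 83065112 to 83070678), Slfn1 (ENSMUSG00000078763, 83116849 to 83122670), Slfn4 (ENSMUSG00000000204, 83175186 to 83190216) and Slfn3 (ENSMUSG00000018986, 83191330 to 83215154), all on the plus strand. In GENCODE M21 the longest coding sequences encode 337 residues for Slfn1 and 378 for Slfn2. They encode 602 residues for Slfn4, 640 for Slfn3, 884 for Slfn5 and 910 each for Slfn8 and Slfn9.

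Because Schlafen genes are known targets of interferon, their promoters were searched for the letters that interferon-responsive factors bind. The motifs were the interferon-stimulated response element, GAAANNGAAA, the interferon regulatory factor core, AANNGAAA, and the gamma-activated site, TTCNNNGAA, each on both strands. Every GAAANNGAAA also holds an AANNGAAA, so the first pair overlap. All 7 genes matched in the RefSeq promoter table (GRCm38.p6), which gives 250 bases before each start and 50 after it. Slfn8 has a pair of starts there, with 1 response element upstream of both. The RefSeq start of Slfn5 lies downstream of the gene start given above, 82951349, so the 250 bases before it lie inside the annotated gene. The 250 bases before the start are shown for the 3 genes that hold the response element and for Slfn4, the most abundant member in the control library, which does not. Capitals mark the motif letters.
Slfn5 (chr11:82951852-82952101, plus strand): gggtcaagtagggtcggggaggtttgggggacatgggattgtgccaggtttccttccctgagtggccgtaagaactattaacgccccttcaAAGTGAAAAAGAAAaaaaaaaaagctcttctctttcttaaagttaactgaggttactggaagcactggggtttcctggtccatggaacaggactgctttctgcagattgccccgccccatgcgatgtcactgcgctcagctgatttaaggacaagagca
Slfn8 (chr11:83020811-83021060, minus strand): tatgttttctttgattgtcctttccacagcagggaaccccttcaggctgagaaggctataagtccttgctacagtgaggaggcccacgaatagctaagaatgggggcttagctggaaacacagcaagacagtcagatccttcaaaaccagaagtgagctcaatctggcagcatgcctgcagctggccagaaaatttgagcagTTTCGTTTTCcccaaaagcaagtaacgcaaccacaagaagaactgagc
Slfn9 (chr11:82991831-82992080, minus strand): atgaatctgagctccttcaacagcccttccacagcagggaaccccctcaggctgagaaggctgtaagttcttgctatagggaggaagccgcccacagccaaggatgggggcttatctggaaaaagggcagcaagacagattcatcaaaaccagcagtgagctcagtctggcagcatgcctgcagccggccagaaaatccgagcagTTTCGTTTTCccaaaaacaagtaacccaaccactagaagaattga
Slfn4 (chr11:83174936-83175185, plus strand): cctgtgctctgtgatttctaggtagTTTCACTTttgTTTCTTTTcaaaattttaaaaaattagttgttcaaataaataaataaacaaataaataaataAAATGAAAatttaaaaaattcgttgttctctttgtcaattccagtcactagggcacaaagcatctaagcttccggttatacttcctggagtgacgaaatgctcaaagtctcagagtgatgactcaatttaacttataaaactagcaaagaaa

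The response element began 155 bases before the RefSeq start of Slfn5, 45 before that of Slfn9 and 48 and 136 before those of Slfn8. In Slfn5 it overlaps a regulatory factor core at each end. Slfn8 and Slfn9, which stand next to each other, carry the same letters there. The response element was in 3.44% of all 32851 promoters. Counted by gene, with any of its starts, it was in 3.99% of 27025 genes and in 3 of the 7 Schlafen genes. Slfn1, Slfn2, Slfn3 and Slfn4 held only the shorter core, and Slfn4 held 3 of them, 225, 214 and 152 bases before its start. The core was in 23.9% of all promoters, in 26.7% of all genes and in 7 of the 7. None of the 7 held the gamma-activated site, which 8.3% of all promoters and 9.55% of all genes held. A match of letters is a description of the sequence and not a measured binding site. The cores of the short members and of Slfn3 are shown with 10 bases on each side, since these are the only matches in their windows.
Slfn1 (chr11:83116779-83116806, plus strand): ggttctccaaAACTGAAAtcgggaccta
Slfn2 (chr11:83065021-83065048, plus strand): cagtctgcccAATAGAAAagtggaggca
Slfn2 (chr11:83065043-83065070, plus strand): gaggcagggcTTTCACTTcctggagggt
Slfn3 (chr11:83191302-83191329, plus strand): ggactctggtAAAAGAAAgcaaaggcgc

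Slfn4, the myeloid member, was the most abundant of the 7 by counts in every library. It had 27013 counts in control, 22092 with TP5, 98289 with sFD17 and 16778 with FR17. Scaled, this was 1599 CPM in control (95% interval 1580 to 1618), 1259 with TP5 (1243 to 1276), 7447 with sFD17 (7401 to 7494) and 731 with FR17 (720 to 742). The 4 intervals did not overlap, with sFD17 far above the others and FR17 lowest. By counts Slfn4 stood at rank 75 of all genes in control, 91 with TP5, 6 with sFD17 and 151 with FR17. Relative to control its log2 fold change was 2.22 in sFD17 (2.20 to 2.24), which is 4.66-fold, and −1.13 in FR17 (−1.16 to −1.10), which is 2.19-fold lower. In TP5 it was −0.34 (−0.37 to −0.32). By library size alone the value in FR17 was −0.88, which is −1.15 relative to the median gene.

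Slfn2, the short member tied to quiescence, varied least. It had 9256 counts in control, 10046 with TP5, 11926 with sFD17 and 10850 with FR17, which scaled to 548, 573, 904 and 473 CPM. Relative to control its log2 fold change was 0.06 with TP5 (0.02 to 0.10), 0.72 with sFD17 (0.68 to 0.76) and −0.21 with FR17 (−0.25 to −0.17). The last of these values turned to 0.03 when only library size was used for scaling. Slfn1, the other short member, had 3720 counts in control, 3339 with TP5, 5707 with sFD17 and 2964 with FR17, or 220, 190, 432 and 129 CPM. It was just under the 2-fold line in sFD17, at a log2 fold change of 0.97 (0.91 to 1.03), and stood at −0.77 (−0.84 to −0.70) in FR17.

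Slfn5, a long member, had 1832 counts in control, 1884 with TP5, 6302 with sFD17 and 1679 with FR17, which scaled to 108, 107, 478 and 73.1 CPM. The control and TP5 intervals overlapped, at 104 to 114 and 103 to 112 CPM. Its log2 fold change in sFD17, 2.14 (2.06 to 2.21, 4.40-fold), was close to that of Slfn4, whereas in FR17 it was −0.57 (−0.66 to −0.47). Slfn8, also long, had 580, 537, 1450 and 543 counts in control, TP5, sFD17 and FR17, or 34.3, 30.6, 110 and 23.7 CPM. It was 3.19-fold higher in sFD17 than in control, a log2 fold change of 1.67 (1.54 to 1.82), and at −0.54 (−0.71 to −0.37) in FR17. The annotation places 559 of the 6326 exon bases of Slfn5 in Slfn5os as well, on the opposite strand, and Slfn5os had at most 6 counts.

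Slfn9 and Slfn3 were scarce. Slfn9, the close neighbour of Slfn8, had 76 counts in control, 108 with TP5, 173 with sFD17 and 121 with FR17. Relative to control its log2 fold change was 1.52 in sFD17 (1.15 to 1.95), 0.44 in TP5 (0.02 to 0.90) and 0.22 in FR17 (−0.20 to 0.66). Slfn3, which lies next to Slfn4, had 26 counts in control, 41 with TP5, 86 with sFD17 and 30 with FR17. It stood at 2.00 in sFD17 (1.43 to 2.77), while its intervals in TP5 (−0.14 to 1.37) and FR17 (−1.04 to 0.58) held 0, so that no difference was detectable at this depth.

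These values rest on reads that the family may share. Of the 50-base stretches of each gene's transcripts, 8.16% in Slfn4, 7.39% in Slfn3, 14.6% in Slfn8 and 11.2% in Slfn9 also occur in another Schlafen transcript. The share was 4.27% in Slfn2, 0.606% in Slfn1 and 0 in Slfn5. For stretches of 150 bases it was 0 in every member but Slfn9, with 1.46%. Slfn3 and Slfn4 share 252 stretches of 50 bases, and Slfn4 had 539 to 1143 times the counts of Slfn3, so the small counts of Slfn3 are uncertain. How reads that fit several genes were counted is not given in the sources used here.

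**Figure D1:**
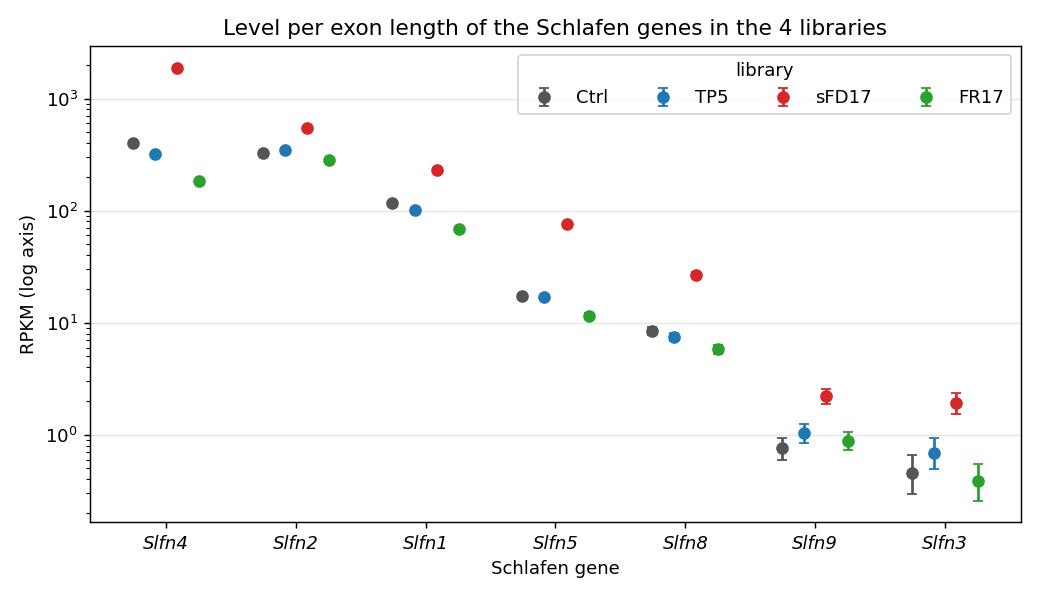
Level of each Schlafen gene in RPKM (CPM per kilobase of exon, log axis) in the 4 libraries, 1 point per library with its 95% Poisson counting interval. Every gene was highest in sFD17, and Slfn4 ran from 184 in FR17 to 1879 in sFD17.

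Per exon length the order of the members was nearly the same in every library. In control, Slfn4 was at 403 RPKM (CPM per kilobase of exon) and Slfn2 at 329, followed by Slfn1 at 118, Slfn5 at 17.1, Slfn8 at 8.39, Slfn9 at 0.754 and Slfn3 at 0.451. The leading pair changed places between libraries. Slfn2 was above Slfn4 in TP5, at 344 (337 to 351) against 318 (314 to 322), and in FR17, at 284 (279 to 289) against 184 (182 to 187). Slfn4 was above Slfn2 in sFD17, at 1879 (1867 to 1891) against 543 (533 to 553). The intervals of Slfn9 and Slfn3 overlapped in control, TP5 and sFD17, and those of all other neighbours in the order did not overlap in any library. Across libraries, 7 of the 7 genes were highest in sFD17 and 6 were lowest in FR17, and Slfn9 was lowest in control. Neighbouring libraries with overlapping intervals were control and TP5 for Slfn3, Slfn5 and Slfn8, control and FR17 for Slfn3 and Slfn9, and TP5 and FR17 for Slfn9.

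**Figure D2:**
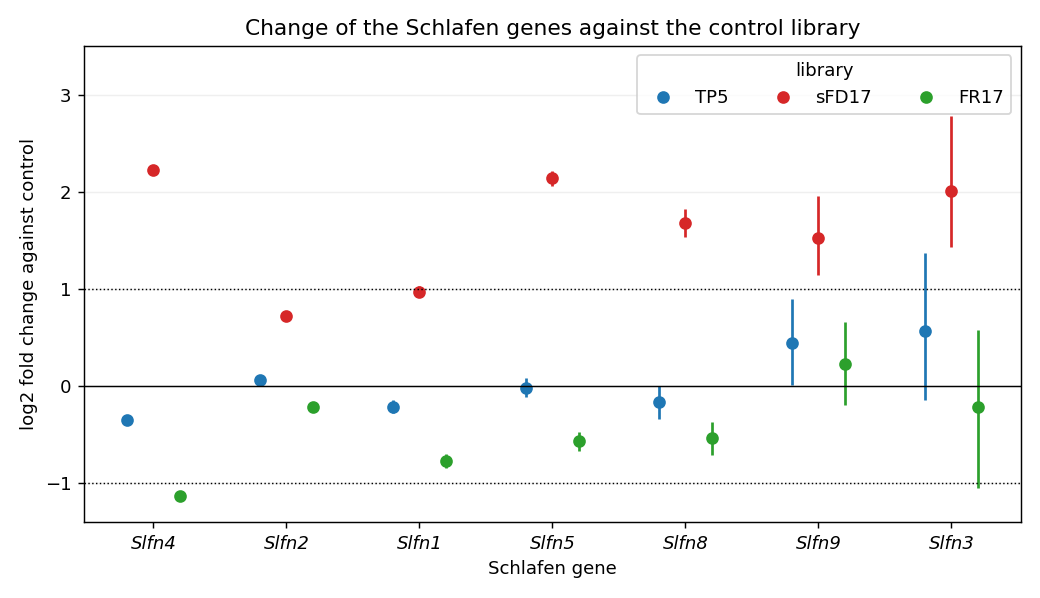
Log2 fold change of CPM against control for each Schlafen gene in the TP5, sFD17 and FR17 libraries, with the 95% counting interval as a line and dotted lines at 2-fold. The sFD17 points lie from 0.72 (Slfn2) to 2.22 (Slfn4), and 1 of the FR17 points (Slfn4, at −1.13) passes the lower dotted line.

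Against control, 5 of the 7 genes were at least 2-fold higher in sFD17 (Slfn3, Slfn4, Slfn5, Slfn8 and Slfn9) and 0 at least 2-fold lower. Of all tested genes 5.32% were that much higher and 6.47% that much lower. The members' median log2 fold change was 1.67, and that of all genes −0.03. The called gene nearest to the line was Slfn9 at 1.52, and the nearest outside it was Slfn1 at 0.97. In FR17 0 of the 7 were 2-fold higher and 1, Slfn4, was 2-fold lower, where 3.92% of all genes were higher and 3.58% lower. The median was −0.54, against 0.02 over all genes, and Slfn1 at −0.77 was the nearest outside the line. Of the 7 values 6 were below 0 and that of Slfn9 was above, but with library size alone Slfn2 and Slfn3 also came out above 0, at 0.03 and 0.01, where the median gene stood at 0.26. Since both comparisons were used to select the family and share the control library, nothing is read from these counts. In TP5 0 of the 7 passed 2-fold in either direction, where 3.2% of all genes were higher and 4.99% lower, and the median was −0.01 against 0.00 over all genes.

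FR17 and sFD17, given at the same dose and collected on the same day, differ only in the order of the TP5 residues. All 7 genes were lower in FR17 than in sFD17, and for 6 the difference was at least 2-fold, where 10.8% of all genes were at least 2-fold lower and 11.3% higher. Slfn4 was 10.2-fold lower in FR17, a log2 difference of −3.35 (−3.37 to −3.33). Slfn5 was 6.52-fold lower and Slfn8 4.63-fold lower, with log2 differences of −2.70 (−2.79 to −2.63) and −2.21 (−2.36 to −2.07). Slfn3 was at −2.22 (−2.97 to −1.70), Slfn1 at −1.74 (−1.81 to −1.68) and Slfn9 at −1.30 (−1.66 to −0.97). Slfn2 was the member inside 2-fold, at −0.93 (−0.97 to −0.90). Under library size alone, which puts the median gene at 0.52, Slfn4 still had −2.89 and Slfn2 had −0.47. These differences follow from levels that the selection used, and are a description of a pair of libraries.

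FR17 and free TP5 carry the same pentapeptide, with and without the assembling backbone. All 7 genes were lower in FR17 than in TP5, but 0 passed 2-fold in either direction, where 2.88% of all genes were lower and 7.04% higher. Slfn4 was at −0.78 (−0.81 to −0.76), Slfn3 at −0.79 (−1.57 to −0.12), Slfn1 at −0.56 (−0.63 to −0.49), Slfn5 at −0.55 (−0.65 to −0.46) and Slfn8 at −0.37 (−0.55 to −0.20). The interval of Slfn9, −0.61 to 0.16, held 0. Against TP5, sFD17 was at least 2-fold higher for 6 of the 7, all but Slfn2 at 0.66 (0.62 to 0.70), and 0 were lower, where 6.74% of all genes were higher and 5.64% lower. Slfn4 stood at 2.56 there (2.54 to 2.59), which is 5.91-fold, and Slfn5 at 2.15 (2.08 to 2.23). Both comparisons with TP5 reuse the FR17 and sFD17 levels on which the family was selected, and are a description.

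**Figure D3:**
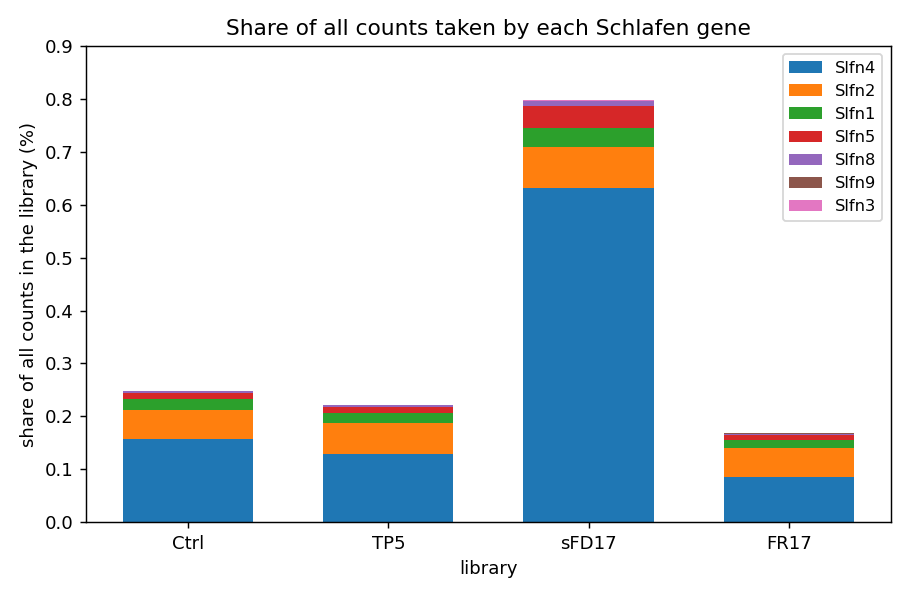
Share of all counts in each library, in percent, taken by the 7 Schlafen genes, stacked by gene from 0. The bar of sFD17 reaches 0.797% and that of FR17 0.168%, with Slfn4 the largest piece in all 4.

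Together the 7 genes took 0.248% of all counts in control (Wilson interval 0.246 to 0.250), 0.222% with TP5 (0.219 to 0.224), 0.797% with sFD17 (0.793 to 0.802) and 0.168% with FR17 (0.166 to 0.170). Slfn4 made up 63.6% of these counts in control, 58.1% with TP5, 79.3% with sFD17 and 50.9% with FR17. The part of Slfn2 ran the other way, with 21.8%, 26.4%, 9.62% and 32.9% in the same order, and that of Slfn5 stayed between 4.31% and 5.09%. After scaling, the summed counts were 3.73 times control in sFD17 (3.69 to 3.77), 0.571 times in FR17 (0.563 to 0.579) and 0.862 times in TP5 (0.850 to 0.874). Without Slfn4, the gene the family was chosen on, the sum of the other 6 was 2.12 times control in sFD17 (2.08 to 2.16), 0.769 times in FR17 (0.752 to 0.786) and 0.992 times in TP5 (0.970 to 1.01).

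The genes were not alike in their profiles over the 3 peptides. Likeness was taken as the root mean square difference of the log2 fold changes against control, over 3 values from 4 libraries. These values include those on which Slfn4 was selected and share the control library, so the likeness is a description. Slfn5 and Slfn8 were the closest pair at 0.28, and Slfn4 and Slfn5 were at 0.38. The most distant pair was Slfn2 and Slfn4 at 1.04. Among the 3673 genes with at least 1000 counts in a library, the 5 nearest to Slfn4 were Oasl1 (0.147), Oasl2 (0.225), Rsad2 (0.265), Oas3 (0.281) and Isg15 (0.286). All 5 are in the list of interferon-stimulated genes used here. How many of the 3673 are in the list was not counted, so no excess is read from this. Slfn5 was nearest to Cmpk2 (0.101), Oas3 (0.152) and Isg15 (0.173), and Slfn8 to Ddx60 (0.092), Parp10 (0.093) and Ifih1 (0.099), the RNA sensor MDA5. Slfn1 had Smchd1 (0.030), Rasip1 (0.035) and Abtb2 (0.043) as its nearest genes, and Slfn2 had Ubap1 (0.036), Map3k11 (0.041) and Ankfy1 (0.046). Smchd1 is a chromatin protein and Map3k11 a kinase. Ddx60, Parp10 and the 6 genes nearest to Slfn1 and Slfn2 are not in that list. The list is a selection, and absence from it does not place a gene outside the interferon response.

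**Figure D4:**
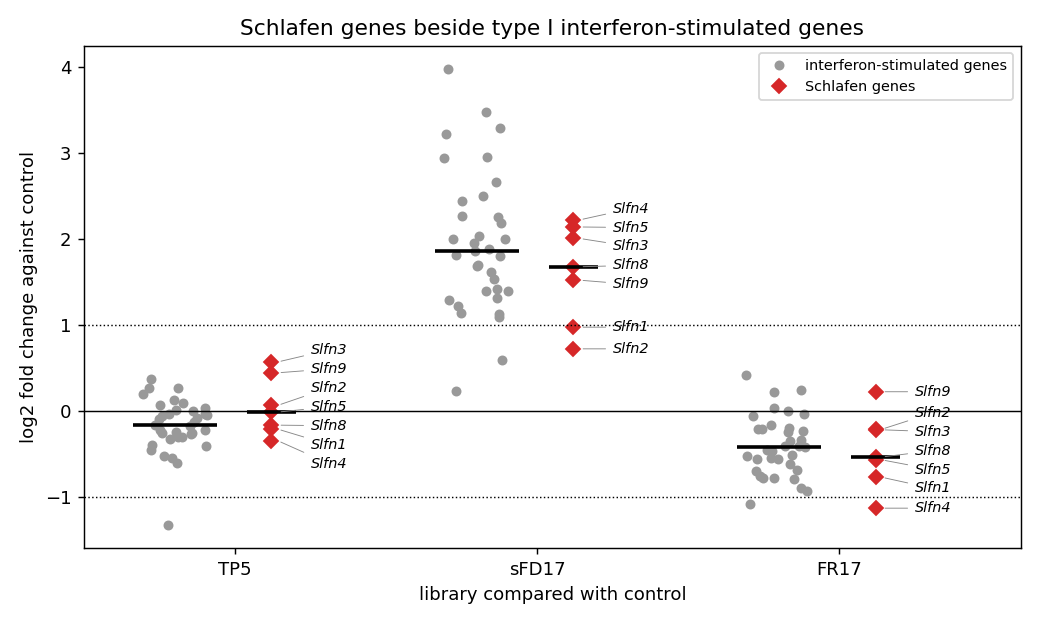
Log2 fold change against control of 35 type I interferon-stimulated genes (grey) and of the 7 Schlafen genes (red, named) in TP5, sFD17 and FR17, with bars at the medians and dotted lines at 2-fold. In sFD17 33 of the 35 listed genes and 5 of the 7 Schlafen genes are above the upper dotted line, with medians of 1.86 and 1.67. At least 2-fold higher there were 5.32% of all tested genes.

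Other genes of the interferon response were read from lists. Of 36 listed type I interferon-stimulated genes 35 were tested. Of these 33 were at least 2-fold higher in sFD17 than in control and 0 lower, where 5.32% and 6.47% of all genes were. The median log2 fold change of the list was 1.86. Bst2 at 0.60 and Ifi44, with 15 counts in control and 14 in sFD17, were the ones inside 2-fold. Ifit2, which binds viral RNA, had 260 counts in control, 259 with TP5, 3217 with sFD17 and 266 with FR17, a log2 fold change of 3.98 in sFD17. Ifit3, its partner, had 603, 500, 5243 and 571 counts in that order and stood at 3.47. Rsad2, which encodes the antiviral enzyme viperin, had 2505, 2528, 11066 and 1787 counts, at 2.50 in sFD17 and −0.93 in FR17. The median of the list in FR17 was −0.42. Of the 35, 0 were 2-fold higher there and 1 was lower, where 3.92% of all genes were higher and 3.58% lower. That gene was Oasl2, of the 2'-5'-oligoadenylate synthetase-like group, with 4300, 3066, 12427 and 2768 counts and −1.08 in FR17, and under library size alone it was not called. In TP5 the single call was Ifi44, lower at −1.33 on 15 and 5 counts, and the median was −0.16. Over all genes 3.2% were higher in TP5 and 4.99% lower. A call of 1 of 35, in FR17 or TP5, is therefore not a result about the list. Between FR17 and sFD17, 32 of the 35 were 2-fold lower and 0 higher, where 10.8% of all genes were lower and 11.3% higher. The median was −2.41. Between sFD17 and TP5, 31 were higher and 0 lower, where 6.74% of all genes were higher and 5.64% lower, with a median of 2.06. Between FR17 and TP5 0 passed in either direction, where 2.88% of all genes were lower and 7.04% higher, with a median of −0.23.

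Ligand genes of the pathway had few or no counts. Of 21 listed interferon ligand genes 2 had at least 10 counts in a library. Ifnb1, the gene of interferon-β, had 47 counts in control, 18 with TP5, 19 with sFD17 and 76 with FR17. It stood at −1.35 with TP5 (−2.31 to −0.63), −0.90 with sFD17 (−1.80 to −0.15) and 0.24 with FR17 (−0.29 to 0.81). Ifng, the gene of interferon-γ, had 15, 17, 23 and 56 counts, with 1.35 in FR17 (0.62 to 2.39). Ifnb1 in TP5 and Ifng in FR17 passed 2-fold, where 4.99% of all genes were lower and 3.92% higher. With 2 genes tested, nothing is read about the list.

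Receptors and signal transducers of the interferons were read next. Of 13 listed genes 1 was 2-fold higher in sFD17 and 0 lower, with a median of 0.31, and 0 passed in TP5 (median −0.09) or FR17 (median −0.36). Since 5.32% of all tested genes were 2-fold higher in sFD17, 1 of 13 is not a result about the list. The gene that passed was Stat2, a subunit of the transcription factor complex activated by type I interferon, with 976 counts in control, 856 with TP5, 3112 with sFD17 and 1031 with FR17 and a value of 2.03 in sFD17. Its partner Irf9, with 1625, 1602, 2304 and 1624 counts, stood at 0.86 in sFD17. The receptor genes Ifnar1 and Ifnar2 stood at 0.02 and 0.25 in sFD17 and at −0.36 and −0.42 in FR17. The receptor-bound kinases Jak1 and Jak2 stood at 0.28 and 0.31 in sFD17 and at −0.46 and −0.50 in FR17.

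Of 9 interferon regulatory factors 2 were 2-fold higher in sFD17, where 5.32% of all genes were, with a median of 0.56. Irf7, the inducible amplifier of type I interferon, had 2346 counts in control, 2939 with TP5, 9579 with sFD17 and 2488 with FR17, and stood at 2.38. Of the 9, 1 was 2-fold higher in TP5 and 1 in FR17, with 0 lower and medians of 0.14 and −0.03. Over all genes 3.2% were higher in TP5 and 3.92% in FR17, and nothing is read from a single call. Irf1 stood at 0.68 in sFD17 and −0.48 in FR17, and Irf8, a factor of monocytes and dendritic cells, at −0.06 and 0.55. Irf9 is in this list too. Interferon-induced genes that restrict RNA or translation, as Schlafen proteins are reported to do, held 12 tested genes of 13. In sFD17 7 were 2-fold higher and 0 lower, where 5.32% of all genes were higher and 6.47% lower, with a median of 1.19. Ifit1, which is also in the first list, had 438, 391, 3200 and 402 counts and a value of 3.22. Helz2, a helicase, had 2436, 3429, 10643 and 2265 counts and stood at 2.48. In FR17 0 passed, with a median of −0.46, Isg20, a ribonuclease gene that the first list holds as well, at −0.78 and Zc3hav1, the gene of the antiviral protein ZAP, at −0.65. In TP5 0 passed and the median was −0.04.

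Markers of other cell types differed between the same libraries. The summed level of 15 neutrophil markers was 33896 CPM in control, 37400 with TP5, 44489 with sFD17 and 30389 with FR17, and 15 of the 15 were higher in sFD17 than in control, 7 of the 15 in FR17. That of 12 macrophage markers was 3428, 2163, 1222 and 3939 CPM, and 0 of the 12 were higher in sFD17 than in control, where the sum was 0.357 times control, and 10 in FR17, where it was 1.15 times. None of the markers of either list was without counts. The sum of 8 monocyte markers ran from 5928 CPM in sFD17 to 7698 in FR17, and that of 11 dendritic cell markers, among them Bst2 of the interferon list, from 2020 in sFD17 to 3485 in TP5. Of these 11, 8 were higher in sFD17 than in control, although their sum was 0.782 times control. T cell markers (9) ran from 40.6 in sFD17 to 110 in FR17, NK cell markers (8) from 30.8 in TP5 to 111 in FR17, and B cell markers (7) from 429 in control to 585 in TP5. Lung structural markers (10) ran from 880 in control to 1534 in sFD17, where 5 of the 10 were higher than in control and the sum was 1.74 times control. Melanoma markers (6) were lowest in sFD17, at 22.4, with 3 or 4 of the 6 without counts and Mitf the most abundant. The part of these differences in the Schlafen values was not tested. In sorted bulk cells, fewer cells of a type and less RNA per cell cannot be told apart.

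**Figure D5:**
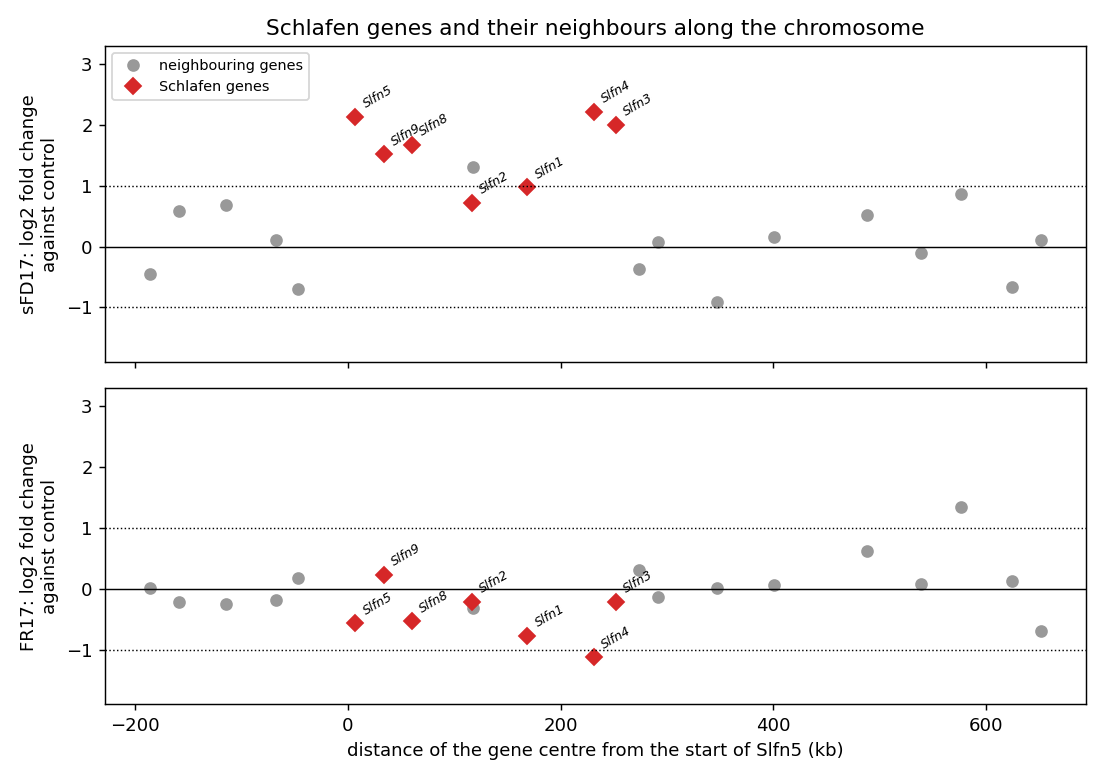
Log2 fold change against control in sFD17 (top) and FR17 (bottom) of the Schlafen genes (red) and of the 15 neighbouring genes with at least 50 counts (grey), by the distance of the gene's centre from the start of Slfn5 in kb. In sFD17 the neighbours lie from −0.90 to 1.32 and the Schlafen genes from 0.72 to 2.22, with dotted lines at 2-fold.

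Genes of other families around the cluster were then read. Within 300 kb of its ends lie 44 genes outside the family, 15 of which reached 50 counts in a library. Relative to control their median log2 fold change was 0.15 with TP5, 0.11 with sFD17 and 0.01 with FR17, and in each comparison 1 of the 15 was 2-fold higher and 0 lower. Of all tested genes 3.2%, 5.32% and 3.92% were 2-fold higher in these comparisons, so 1 of 15 is not a result about the neighbours. Ccl5, a chemokine gene, had 387 counts in control, 268 with TP5, 554 with sFD17 and 1339 with FR17 and stood at 1.34 in FR17. The gene 1700020L24Rik, with 59, 156, 67 and 125 counts, stood at 1.32 in TP5. In sFD17 it was Gm20234, named after its values were seen, which overlaps Slfn2 on the opposite strand and shares no exon bases with it in the annotation. It had 113, 142, 222 and 123 counts and stood at 1.32 in sFD17. Without strand in the counting, reads from it and from unspliced Slfn2 RNA could not be told apart. AI662270 and Gm11427, the other 2 inside the cluster, stood at −0.37 and 0.07 in sFD17.

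The other loci of the family were at low levels. Slfn10-ps, annotated as a pseudogene, had 41 counts in control, 48 with TP5, 63 with sFD17 and 60 with FR17, with a log2 fold change of 0.94 in sFD17 (0.39 to 1.58), and 19.7% of its 50-base stretches occur in another Schlafen transcript. Slfn14 had 2 counts in control and 0 in the other libraries, which allows up to 0.171 CPM in TP5, 0.227 in sFD17 and 0.131 in FR17. Slfn5os had 0, 0, 6 and 2 counts and Slfnl1, which lies on chromosome 4, 0, 1, 0 and 5 counts.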

How the data were processed

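Total RNA was taken from the sorted CD11b+Ly6g+ cells with TRIzol, and libraries were made with a stranded kit. The values deposited by the authors are counts of reads on each gene, not normalized, in 4 columns that match the 4 samples by group name. The submitters' processing notes name HISAT2 2.0.5, StringTie 1.3.3b, featureCounts 1.5.0-p3, edgeR 3.18.1 and GRCm38.p6. Whether counting used the strand or reads with several matches is not given in the sources used here. GENCODE M21 holds 54409 of the identifiers, 53499 of them at the same coordinates. The members, lists and comparisons were chosen with earlier results of these data known.

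Log2 fold changes came from TMM-scaled log2 CPM with a prior count of 2 (edgeR 4.0.16, R 4.3.3) for 16369 genes, those that reached 10 counts in any library, and a call was a 2-fold difference. Such a fold change understates the change of low genes. Intervals of 95% are exact binomial for ratios of a pair of counts, exact Poisson for CPM and RPKM, and Wilson for shares. They cover counting error only. For genes without counts a floor of 3 counts was used. RPKM used the gene lengths in the file. DESeq2 1.42.0 gave alternative size factors, and Python 3.11.15, pandas 2.3.3, numpy 2.4.6, scipy 1.17.1 and matplotlib 3.10.9 did the rest. The procedure was tested on simulated data with known fold changes. Named genes were the members, other loci with a Schlafen symbol, in each list the 2 largest changes in sFD17 and the 2 largest in FR17 with at least 50 counts in a library compared, Irf7, Irf9, Stat2, Ifnar1, Ifnar2, Ifng and Gli1, the nearest profiles, and the 2 neighbours with the largest changes. Some genes selected in this way are not reported here.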

Additional observations from a re-analysis of the deposited data

How the results depend on the processing

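With 1 library per group, no replicate could be left out. No paired analysis was possible because the groups share no replicate beyond the single pool of each, and no result comes from a test between samples. The alternatives were a 1.5-fold and a 3-fold call, DESeq2 size factors, library size alone, library size without the 10 most abundant genes, a prior count of 0.5, other filters on low counts, and calls by edgeR's exact test at an unadjusted p under 0.05 with a trended dispersion over the 4 libraries or a fixed biological coefficient of variation of 0.4. The count of called Schlafen genes in FR17 against control, 1, became 2 at 1.5-fold and 0 at 3-fold, under library size alone and with the fixed coefficient. In FR17 against TP5 it went from 0 to 2 at 1.5-fold. In sFD17 against TP5 it went from 6 to 3 at 3-fold and with the fixed coefficient, and in sFD17 against control from 5 to 3 with the fixed coefficient. Of the interferon-stimulated genes, the 33 called in sFD17 became 21 with the fixed coefficient. The 1 called in FR17 became 10 at 1.5-fold and 0 at 3-fold, with the fixed coefficient and under library size alone, and the 1 in TP5 became 2 at 1.5-fold and 0 at 3-fold, with at least 10 counts in every library and under both exact tests. The exact tests compare single libraries and take the spread from the 4 conditions or from a set value, so they are other call rules and not tests of the conditions. A higher fold or spread calls fewer genes by construction. The other counts of Schlafen genes in the 6 comparisons, and of interferon-stimulated genes in the 3 against control, stayed within 1.5 times the reported ones, and the interferon counts of the other comparisons were not recomputed. Over all tested genes, library size alone turned 871 higher calls into 580 in sFD17 against control, 641 higher and 586 lower into 1091 and 316 in FR17 against control, 1847 and 1766 into 4209 and 782 in FR17 against sFD17, and 1103 and 923 into 709 and 1646 in sFD17 against TP5. Of the 42 log2 fold changes of the 7 genes, 28 moved beyond their counting interval under library size alone and 6 under DESeq2 size factors, and the prior count moved 0. The depth limits Slfn3 and Slfn9, whose smallest counts were 26 and 76.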

Other observations

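Further lists that touch on what Schlafen proteins are known for were read in the same way, against control. Of 14 tested genes of tRNA cleavage and ribosome stalling, of 16 listed, 0 passed 2-fold in TP5 or FR17 and 1 in sFD17, with medians of 0.01, 0.12 and −0.14. Of all tested genes 6.47% were 2-fold lower in sFD17, so 1 of 14 is not a result about the list. That gene was Ang, which encodes the ribonuclease angiogenin that cleaves tRNA under stress, with 210 counts in control, 136 with TP5, 36 with sFD17 and 392 with FR17 and a log2 fold change of −2.14 in sFD17. Trdmt1 stood at −0.72 in sFD17 and Nsun2 at 0.55 in FR17, both tRNA methyltransferase genes. Of 17 quiescence genes 0 passed in any of the 3 comparisons, with medians of −0.09 with TP5, 0.08 with sFD17 and −0.26 with FR17. Socs2 stood at −0.72 in sFD17 and 0.62 in FR17, Btg2 at 0.54 in sFD17 and Btg1 at −0.61 in FR17.

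Slfn4 is known as a target of Hedgehog signaling in the stomach. Of 14 listed Hedgehog genes 11 were tested, and the medians were −0.17 with TP5, 0.14 with sFD17 and 0.32 with FR17. Gli1, the transcription factor of that pathway, had 23 counts in control, 21 with TP5, 20 with sFD17 and 33 with FR17, with −0.17, 0.14 and 0.07. Shh, named after its values were seen, passed 2-fold in all 3 comparisons on 2, 8, 9 and 10 counts, and Hhip was lower in TP5 on 29 and 10 counts and at 0.32 in FR17. Over all genes 3.2% were 2-fold higher and 4.99% lower in TP5, with 5.32% higher in sFD17 and 3.92% in FR17. Single calls among 11 genes are not a result about the list. Smo stood at −0.95 in sFD17 and Cdon at 0.48 in FR17.

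Of 14 tested MDSC effector genes, of 15 listed, 2 were 2-fold higher and 2 lower in sFD17, 1 was lower in FR17 and 1 was lower in TP5, with medians of 0.34, −0.39 and −0.27. Of all tested genes 5.32% were 2-fold higher and 6.47% lower in sFD17, 3.58% were lower in FR17 and 4.99% lower in TP5, and 1 of 14 in FR17 or TP5 is near those shares. Nos2, which encodes the inducible nitric oxide synthase, had 13 counts in control, 10 with TP5, 134 with sFD17 and 12 with FR17, a log2 fold change of 3.54 in sFD17. Cd274, the gene of the checkpoint ligand PD-L1, had 5399, 4253, 11398 and 4144 counts, at 1.43 in sFD17 and −0.82 in FR17. Il10, named after its values were seen, had 608, 276, 228 and 818 counts and was 2-fold lower in TP5 and sFD17. Ptgs2, the prostaglandin synthase gene, stood at −0.94 in FR17.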
